A study of Mus musculus with 8 samples.

Results

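The genes described here are 10 targets of the transcription factor p53 that promote cell death: Bax, Bbc3, Pmaip1, Fas, Tnfrsf10b, Perp, Phlda3, Trp53inp1, Aen and Ei24. They were taken by symbol from tables of 23337 gene symbols, and each was present in all 8 tables. They were measured by messenger RNA sequencing of naive CD4 or CD8 T cells (positive for CD62L and low for CD44) from mesenteric lymph nodes and spleens of mice aged 4 weeks. The 4 groups, with 2 libraries each, were CD4 cells of wild-type (WT) mice, CD4 cells of mice with a conditional knockout (KO) of Trappc1, CD8 cells of WT mice and CD8 cells of KO mice. The knockout was made with CD4-cre, which acts during T cell development in the thymus and so deletes the gene in CD4 and CD8 cells alike, and not in most other cells. Trappc1 encodes part of the TRAPP vesicle-tethering machinery, and the title of the series concerns the need of naive T cells for it to survive. The labels do not say whether the libraries of a group came from separate mice or pools, or whether the WT mice carried CD4-cre, so the p-values below reflect how far these libraries scatter, and that scatter may be technical.

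The protein p53 is held low by the ubiquitin ligase Mdm2 and accumulates after DNA damage and other stresses. It then binds response elements in DNA, each built of a pair of decamers with a short spacer, and raises transcription of genes for cell cycle arrest, repair and death. Lymphocytes, thymocytes above all, die readily by this route, in which the BH3-only proteins encoded by Bbc3 (PUMA) and Pmaip1 (NOXA) neutralise BCL2-type survival proteins and free BAX to permeabilise mitochondria. Fas and Tnfrsf10b, the mouse TRAIL receptor, sense ligands outside the cell and recruit caspase 8. The remaining members act elsewhere: Phlda3 blocks the survival kinase Akt at the membrane, Trp53inp1 supports p53 activity and autophagy, Aen is a nuclease induced in apoptosis, Perp is a membrane protein of cell junctions, and Ei24 is a protein of the endoplasmic reticulum.

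Depth, estimated from the deposited coverage and FPKM values, was 3.03 to 4.01 gigabases per library. Levels are given in TPM, a length-corrected share of all transcripts. The T cell receptor gene Cd3e stood at 240 to 763 TPM in all 8 libraries, Cd4 at 543 to 764 in the CD4 libraries against 0 to 14.5 in the CD8 libraries, and Cd8a at 163 to 548 in the CD8 libraries against 1.28 to 4.10 in the CD4 libraries. Trappc1 was at 78.7 and 55.0 TPM in CD4 WT cells, 30.5 and 32.8 in CD4 KO cells, 81.2 and 40.3 in CD8 WT cells, and 56.9 and 45.6 in CD8 KO cells, so the genotypes overlapped in the CD8 cells. Of the 8 libraries, the one labelled CD8 WT replicate 2 differed most from the rest. Its summed level of 11 erythroid markers was 92328 TPM, against 2228 in CD8 WT replicate 1 and 77.9 to 437 in the other 6 libraries. Its 17 neutrophil and myeloid markers summed to 30630 TPM, against 91.0 to 2293 in the other 7, and its 13 T cell identity genes to 6096 TPM, against 8646 to 14414. Each CD8 difference of the 10 genes is therefore also given against CD8 WT replicate 1 alone.

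In CD4 cells all 10 genes had a higher mean on the log2 scale in the knockout, whereas 41.7% of the 11786 genes tested did. The median difference of the 10 was 1.23 on the log2(TPM + 1) scale, beside −0.16 for all genes tested. Both KO libraries lay above both WT libraries for 9 of the 10, every one but Ei24, beside 21.7% of all genes. Perp enters both counts on values near the floor, 0 in both WT libraries and 2.55 and 0.123 TPM in the KO libraries. It was tested only because of its level in the library labelled CD8 WT replicate 2. Phlda3 and Trp53inp1 rose by limma's test with Benjamini-Hochberg adjustment over all genes, that is, 2 of 10 members, where 0.187% of all genes were called higher and 0.713% in either direction. At an unadjusted p under 0.05, Bax, Pmaip1 and Fas joined them, making 5 of 10 beside 5.03% of all genes in that direction and 16.7% in either. The CD8 libraries enter this comparison only through the pooled spread. Without the one labelled CD8 WT replicate 2, limma called 6 of the 10 higher in CD4 cells beside 266 of all 11786 genes, with adjusted p = 0.0171 for Bax, 0.0222 for Pmaip1, 0.0288 for Fas, 0.0144 for Phlda3, 0.0103 for Trp53inp1 and 0.0405 for Aen. Without CD8 WT replicate 1 it called the same genes but Aen (adjusted p = 0.0519), beside 263 of all genes. The summed level of the 10 was 595 to 718 TPM in CD4 WT cells and 1762 to 1971 TPM in CD4 KO cells. Bax was the largest part of these sums, at 374 to 496 TPM in CD4 WT cells and 962 to 1109 TPM in CD4 KO cells.

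In CD8 cells 8 of the 10 had a higher mean in the knockout, beside 52.4% of all genes, and the median difference was 1.20, beside 0.05 for all genes. Bax, Bbc3, Fas, Phlda3, Trp53inp1 and Aen had both KO libraries above both WT libraries, 6 of 10 beside 23% of all genes. The same 6 did so in both lineages, as did 8.93% of all genes. Phlda3 was the 1 member that rose by limma's test, where 0.11% of all genes were called higher and 0.297% in either direction. Bax, Fas, Trp53inp1 and Aen also had an unadjusted p under 0.05, making 5 of 10 beside 7.08% of all genes in that direction and 15.1% in either. Against CD8 WT replicate 1 alone, both KO libraries were higher for 8 of 10 genes, beside 32.4% of all genes, and the median difference was 0.96, beside −0.07 for all genes. All 10 genes passed the filter of a mean of 1 TPM over the 8 libraries, but Perp did so only through the library labelled CD8 WT replicate 2. That library was below CD8 WT replicate 1 for 4 of the 10 (Bax, Fas, Aen and Ei24), beside 63.3% of all genes, and was the highest of all 8 for Pmaip1, Tnfrsf10b and Perp. In bulk samples such as these, fewer cells of a type and less RNA per cell cannot be told apart.

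**Figure D1:**
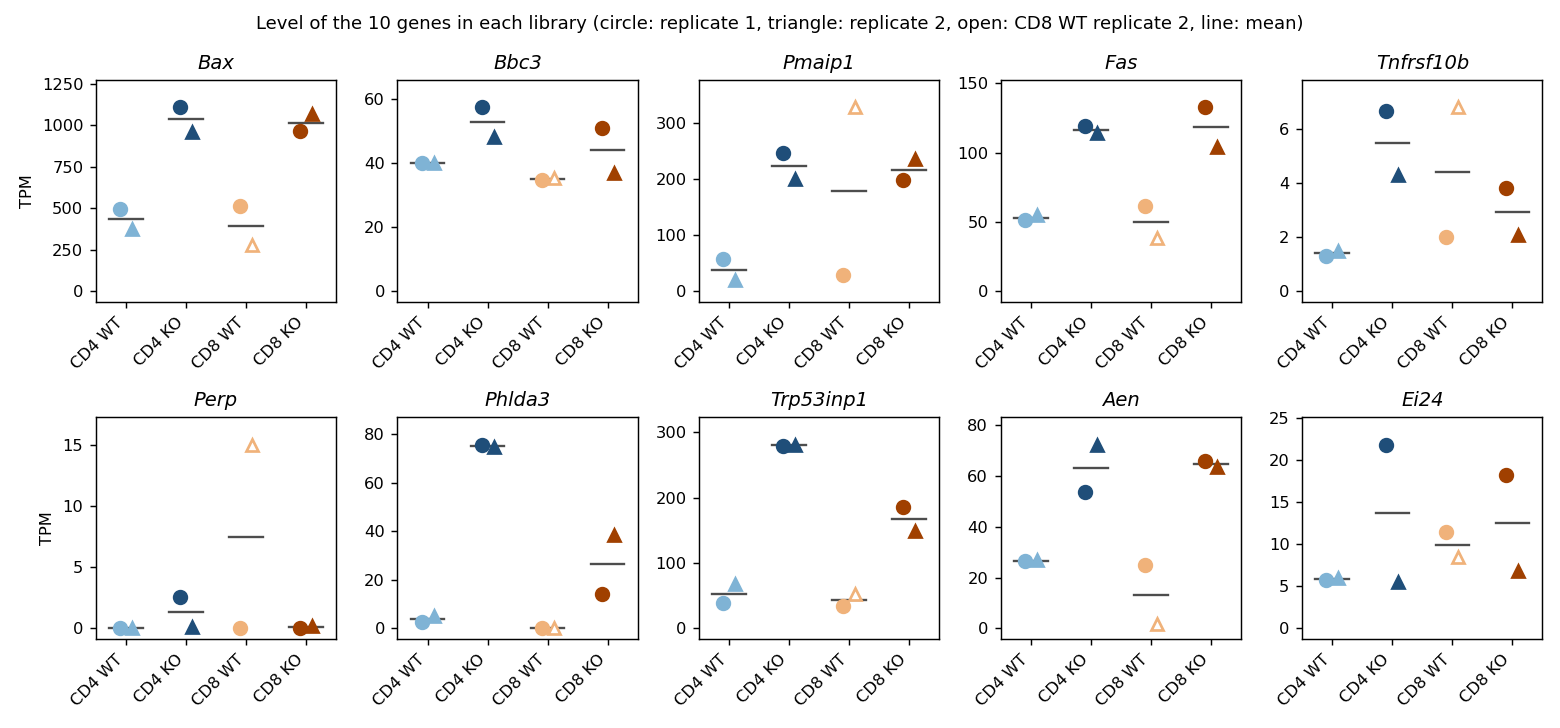
Level of each of the 10 genes in TPM (vertical axis, linear, a scale of its own per gene) in the 4 groups, with 1 point per library (circle replicate 1, triangle replicate 2) and a line at the group mean. The open triangle is the library labelled CD8 WT replicate 2. The 2 CD4 KO points lie above the 2 CD4 WT points for every gene but Ei24, and the library labelled CD8 WT replicate 2 is the highest of all 8 for Pmaip1, Tnfrsf10b and Perp.

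Promoter sequences are shown for some of the members, with upstream windows searched for the element that p53 binds. The member windows searched, from RefSeq's table for GRCm38.p6, were those of Bax, Bbc3, Phlda3, Fas, Aen and Ei24. These are 6 of the 10 members, with 9 windows in all. No window of Pmaip1, Tnfrsf10b, Perp or Trp53inp1 was included, so the member counts below say nothing about those genes. The 250 bases before each start were searched on both strands for a pair of p53 consensus decamers, with a spacer of at most 13 bases, the core C and G of each decamer kept, and up to 3 mismatches. Of all 32851 windows, 13% hold such a match, 3.34% hold one with up to 2 mismatches, and 7.13% hold an exact single decamer. Among these 9 windows 4 held a match, namely Bax, the first and another start of Bbc3, and the second start of Aen. The windows of Bax and Bbc3, genes of the mitochondrial branch, and of Phlda3, the member with the largest difference, are given from 5′ to 3′ along the gene, with the match in capitals.
Bax: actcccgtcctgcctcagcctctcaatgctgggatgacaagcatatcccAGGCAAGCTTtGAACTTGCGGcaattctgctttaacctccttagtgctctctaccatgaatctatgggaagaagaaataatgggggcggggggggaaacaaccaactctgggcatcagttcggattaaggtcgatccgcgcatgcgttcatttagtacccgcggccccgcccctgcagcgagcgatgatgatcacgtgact
Bbc3: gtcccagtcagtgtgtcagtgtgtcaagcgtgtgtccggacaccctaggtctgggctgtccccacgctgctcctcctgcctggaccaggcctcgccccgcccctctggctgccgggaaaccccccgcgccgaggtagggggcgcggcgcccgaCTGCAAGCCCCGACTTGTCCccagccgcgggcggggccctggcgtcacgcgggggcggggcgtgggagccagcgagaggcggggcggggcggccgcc
Phlda3: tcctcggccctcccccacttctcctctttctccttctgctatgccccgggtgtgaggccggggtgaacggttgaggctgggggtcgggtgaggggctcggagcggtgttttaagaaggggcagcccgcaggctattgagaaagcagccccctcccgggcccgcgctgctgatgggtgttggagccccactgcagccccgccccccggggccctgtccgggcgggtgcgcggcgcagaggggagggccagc
The Bax window is chr7:45466899-45467148 on the minus strand, and its match, with 2 mismatches and a spacer of 1 base, begins 201 bases before the start and includes 1 exact decamer. The Bbc3 window is chr7:16309333-16309582 on the plus strand, and its match has 3 mismatches and no spacer. The Phlda3 window, chr1:135765835-135766084 on the plus strand, held no match at this limit, and neither did that of Fas. The second Aen start has a match with 3 mismatches and no spacer, printed alone because it lies within the first exon of another Aen transcript, at chr7:78895937-78895956.
Aen: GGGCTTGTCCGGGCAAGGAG
A match describes these letters and is not a measured binding site, and no binding data were analysed here.

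Of the genes acting at mitochondria, Bax and Pmaip1 had KO levels well above WT in CD4 cells and Bbc3 differed little. None of the 3 passed the test over all 8 libraries in either lineage. Bax (chromosome 7, 45461695 to 45466898, minus strand, mm10) encodes the pore-forming effector itself. The CD4 libraries held 496 and 374 TPM when WT and 1109 and 962 TPM when KO, and the CD8 libraries 512 and 278 TPM when WT and 963 and 1067 TPM when KO. All 4 KO libraries were above all 4 WT libraries, and the lowest was the library labelled CD8 WT replicate 2. The ratio of KO to WT means was 2.38 in CD4 cells and 2.57 in CD8 cells, or 1.98 against CD8 WT replicate 1 alone. The log2 difference was 1.26 ± 0.34 (SE) in CD4 cells, with a 95% interval of 0.50 to 2.02, and did not pass (limma, adjusted p = 0.120). In CD8 cells it was 1.42 ± 0.34, with an interval of 0.67 to 2.18 (adjusted p = 0.134), and 0.98 at an adjusted p of 0.120 when the library labelled CD8 WT replicate 2 was left out.

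Bbc3 (chromosome 7, 16309583 to 16318334, plus strand) was at 39.8 and 40.0 TPM in CD4 WT cells, 57.3 and 48.2 in CD4 KO cells, 34.6 and 35.4 in CD8 WT cells, and 50.8 and 36.9 in CD8 KO cells. The KO libraries were the higher in both lineages, though CD8 KO replicate 2 exceeded the WT libraries by little. The ratios were 1.32 and 1.25, and the log2 differences of 0.39 ± 0.34 (limma, adjusted p = 0.591) and 0.30 ± 0.34 (adjusted p = 0.685) were about the size of their errors. Against CD8 WT replicate 1 alone the CD8 difference of Bbc3 was 0.32 (adjusted p = 0.677). Pmaip1 (chromosome 18, 66458604 to 66465558, plus strand) was at 57.0 and 19.5 TPM in CD4 WT cells and 246 and 200 in CD4 KO cells, a ratio of 5.83. Its CD4 difference, 2.69 ± 0.90, was the second largest of the 10 but the WT libraries were far apart, and it did not pass (adjusted p = 0.181). In CD8 cells the libraries labelled WT read 28.9 and 327 TPM and the KO libraries 197 and 235 TPM. The KO libraries thus lay between the WT libraries, and the sign turned on which WT library was used: the difference was 1.13 ± 0.90 with both (adjusted p = 0.567), 2.86 without CD8 WT replicate 2 (adjusted p = 0.0838) and −0.60 without CD8 WT replicate 1.

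The receptor Fas had KO levels above WT in both lineages, while Tnfrsf10b was scarce and had no common direction. Fas (chromosome 19, 34290659 to 34327770, plus strand) was at 51.1 and 54.9 TPM in CD4 WT cells, 119 and 114 in CD4 KO cells, 61.1 and 38.3 in CD8 WT cells, and 133 and 104 in CD8 KO cells. All 4 KO libraries were above all 4 WT libraries, the lowest again being the library labelled CD8 WT replicate 2. The ratio was 2.20 in CD4 cells and 2.39 in CD8 cells, or 1.94 against CD8 WT replicate 1. The differences of 1.12 ± 0.33 (limma, adjusted p = 0.142) and 1.26 ± 0.33 (adjusted p = 0.162) did not pass, and the CD8 value was 0.93 at an adjusted p of 0.156 when the library labelled CD8 WT replicate 2 was left out. Tnfrsf10b (chromosome 14, 69767472 to 69784411, plus strand) was at 1.31 and 1.5 TPM in CD4 WT cells and 6.68 and 4.29 in CD4 KO cells, a difference of 1.41 ± 0.68 (adjusted p = 0.331). In CD8 cells it was at 1.99 and 6.81 TPM in WT and 3.80 and 2.07 in KO, and the difference of −0.33 ± 0.68 (adjusted p = 0.838) became 0.36 when CD8 WT replicate 1 stood alone.

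The ligands of these receptors were also low. Fasl, the ligand of Fas, was at 8.78 and 32.0 TPM in CD4 WT cells, 14.9 and 12.8 in CD4 KO cells, 1.02 and 2.78 in CD8 WT cells, and 2.50 and 19.5 in CD8 KO cells. Tnfsf10, which encodes TRAIL, was between 2.03 and 10.4 TPM in all 8 libraries. Of 13 genes of death receptor signalling, none was called in either lineage by limma, and 2 in CD4 and 0 in CD8 cells had an unadjusted p under 0.05. Their median differences were −0.20 and 0.13.

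Phlda3, the inhibitor of Akt, had the largest difference of the 10 in both lineages and rose in both. It lies on chromosome 1, 135766085 to 135769134, plus strand, downstream of the promoter printed above. It was at 2.57 and 4.95 TPM in CD4 WT cells and at 75.8 and 74.8 TPM in CD4 KO cells, a ratio of 20.0. In CD8 cells it was listed at 0 in both WT libraries and at 14.3 and 38.6 TPM in the KO libraries, so no ratio is given. The groups were far apart in both lineages. The CD4 difference was 4.05 ± 0.58, with a 95% interval of 2.75 to 5.35 (limma, adjusted p = 0.0301), and the CD8 difference 4.62 ± 0.58, with an interval of 3.32 to 5.92 (adjusted p = 0.0233). Each was the fourth largest rise among the 11786 genes. CD8 WT replicate 1 alone gave the same CD8 difference, 4.62, at an adjusted p of 0.0521. With a pseudocount of 5 in place of 1, the CD8 difference was 2.54 (adjusted p = 0.0635). The CD4 call was lost without any 1 of the 4 CD4 or 2 CD8 KO libraries, at adjusted p = 0.0943 to 0.375 and differences of 3.68 to 4.42. The CD8 call was lost without any 1 library other than CD8 WT replicate 1, at adjusted p = 0.0521 to 0.239 and differences of 3.93 to 5.31.

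Trp53inp1, which supports p53 activity and autophagy, rose in CD4 cells. It lies on chromosome 4, 11156441 to 11174377, plus strand. It was at 38.1 and 67.8 TPM in CD4 WT cells and 279 and 281 TPM in CD4 KO cells, a ratio of 5.29 and a difference of 2.44 ± 0.36 (limma, adjusted p = 0.0318). In CD8 cells it was at 34.0 and 51.9 TPM in WT and 186 and 149 TPM in KO, a ratio of 3.90, or 4.92 against CD8 WT replicate 1. All 4 KO libraries were above all 4 WT libraries. The CD8 difference of 1.96 ± 0.36 did not pass (adjusted p = 0.0751), nor did that of 2.26 at an adjusted p of 0.0580 when the library labelled CD8 WT replicate 2 was left out, but that of 1.66 without CD8 WT replicate 1 did (adjusted p = 0.0248). The CD4 call was lost without any 1 of the 4 CD4 or 2 CD8 KO libraries, at adjusted p = 0.0972 to 0.375. Of 12 genes listed for Akt signalling and autophagy around Phlda3 and Trp53inp1, none was called by limma. An unadjusted p under 0.05 was seen for 3 in CD4 and 2 in CD8 cells, and the median differences were 0.43 and 0.08. The list includes Pdk1, which encodes a pyruvate dehydrogenase kinase and not the kinase that activates Akt.

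**Figure D2:**
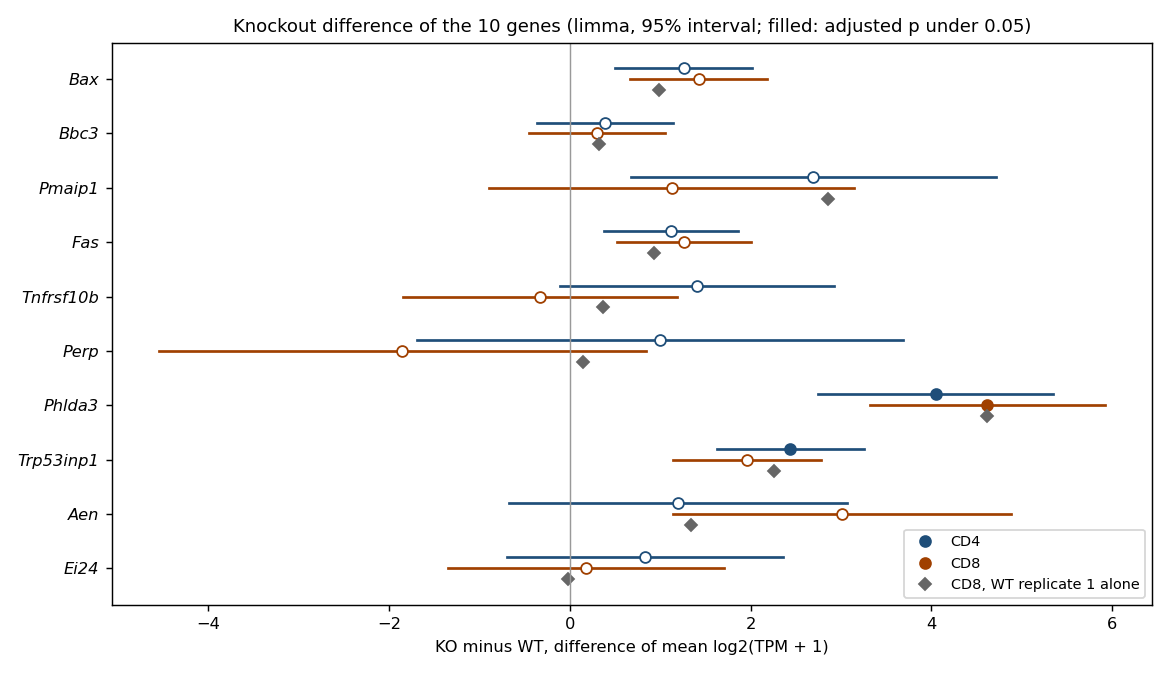
Difference between KO and WT for each of the 10 genes in log2(TPM + 1), with 95% intervals from limma as lines, for CD4 cells (blue) and CD8 cells (brown), filled where the adjusted p was under 0.05. Grey diamonds give the CD8 difference without the library labelled CD8 WT replicate 2, with no interval. Phlda3 has the largest difference in both lineages (4.05 and 4.62), and Pmaip1, Tnfrsf10b, Perp and Aen move most when that library is left out.

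The nuclease gene Aen had higher KO levels in both lineages without passing the test, and the scarce genes Perp and Ei24 had no stable difference. Aen (chromosome 7, 78895927 to 78908833, plus strand) was at 26.5 and 26.9 TPM in CD4 WT cells and 53.8 and 72.4 in CD4 KO cells, a ratio of 2.36. In CD8 cells it was at 25 and 1.56 TPM in WT and 66.0 and 63.6 in KO. All 4 KO libraries were above all 4 WT libraries, and the one labelled CD8 WT replicate 2 stood far below the other 3 WT libraries. The CD4 difference was 1.20 ± 0.84 (limma, adjusted p = 0.505). The CD8 difference was 3.01 ± 0.84 with a ratio of 4.88 (adjusted p = 0.178), and 1.34 with a ratio of 2.59 against CD8 WT replicate 1 alone (adjusted p = 0.120).

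Perp (chromosome 10, 18845071 to 18857072, plus strand) had a listed level of 0 in 4 libraries: both of CD4 WT, CD8 WT replicate 1 and CD8 KO replicate 1. It was at 2.55 and 0.123 TPM in CD4 KO cells, 0.228 in CD8 KO replicate 2 and 15.1 in the library labelled CD8 WT replicate 2. Perp was thus at most 2.55 TPM in sorted T cells apart from 1 library. That library also held the summed erythroid and myeloid markers given above, and their part in its Perp level was not tested. Of the markers of epithelial cells, in which Perp is well known, Krt5, Krt8, Krt14, Cdh1 and Dsp were at 0 in that library. Krt5, Krt8, Krt14 and Dsp were low in every library, at most 0.301 TPM, and Cdh1 was at most 1.18 TPM, so their 0 says little. Epcam was at 7.77 TPM there, Jup at 3.35 and Krt18 at 1.80. Each was within the range of the other 7 (1.77 to 25.2, 0.935 to 12.9 and 0 to 2.43 TPM). The differences were 0.998 ± 1.2 in CD4 cells (limma, adjusted p = 0.714) and −1.85 ± 1.2 in CD8 cells (adjusted p = 0.484), and 0.15 in CD8 cells without that library. The CD4 value was 0.17 without CD4 KO replicate 1 and 1.83 without CD4 KO replicate 2. Ei24 (chromosome 9, 36779153 to 36797393, minus strand) was at 5.80 and 6.02 TPM in CD4 WT cells, 21.9 and 5.58 in CD4 KO cells, 11.5 and 8.51 in CD8 WT cells, and 18.3 and 6.86 in CD8 KO cells. In each lineage KO replicate 1 was the highest and KO replicate 2 the lowest, so the genotypes overlapped. The differences of 0.83 ± 0.68 (adjusted p = 0.575) and 0.18 ± 0.68 (adjusted p = 0.921) became −0.0708 without CD4 KO replicate 1 and −0.47 without CD8 KO replicate 1, and the CD8 value was −0.0165 against CD8 WT replicate 1 alone.

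**Figure D3:**
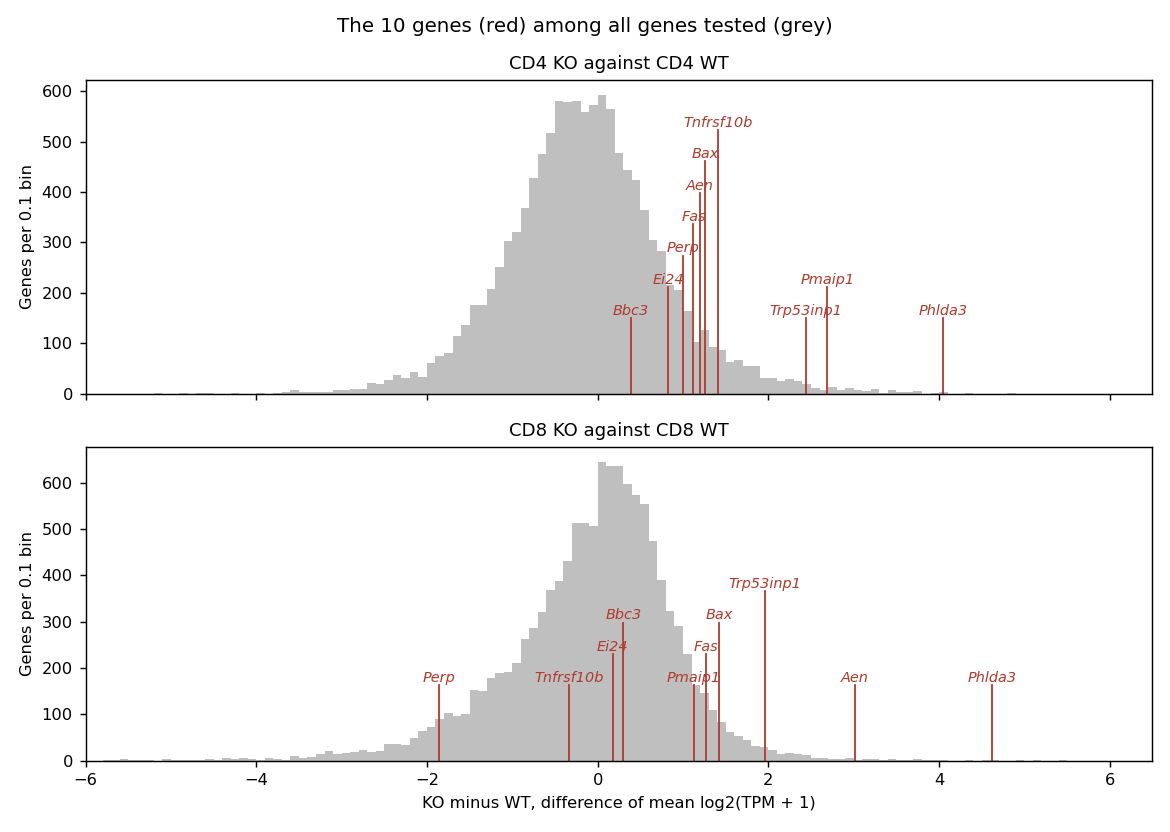
Distribution of the KO minus WT difference in mean log2(TPM + 1) over the 11786 genes tested (grey, number of genes per bin of 0.1), with the 10 genes marked in red at their own values, for CD4 cells (top) and CD8 cells (bottom). In CD4 cells all 10 lie above 0, from 0.39 for Bbc3 to 4.05 for Phlda3, and in CD8 cells Tnfrsf10b and Perp lie below it.

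Whether the knockout difference itself differed between CD8 and CD4 cells was tested for each gene as the CD8 minus the CD4 difference. By limma none of the 10 was called, nor was any of the 11786 genes (0%), and at an unadjusted p under 0.05 there were 0 of 10 beside 6.95% of all genes. The values were 0.16 for Bax with a 95% interval of −0.91 to 1.24, 0.14 for Fas (−0.91 to 1.19), 0.57 for Phlda3 (−1.27 to 2.41) and −0.48 for Trp53inp1 (−1.63 to 0.68). For Pmaip1 the value was −1.56 (−4.42 to 1.29), for Tnfrsf10b −1.74 (−3.88 to 0.41) and for Aen 1.82 (−0.84 to 4.47). Perp had the largest value of the 10, −2.85 (−6.66 to 0.95), and Ei24 and Bbc3 had −0.65 and −0.09. The intervals are wide enough to hold differences of several fold. Without CD8 WT replicate 1, which leaves the library labelled CD8 WT replicate 2 as the only CD8 WT library, 1148 of all 11786 genes were called, among them Aen (3.49, adjusted p = 0.0104) and Pmaip1 (−3.29, adjusted p = 0.0365). Perp was below the threshold there too (−4.86, adjusted p = 0.0371), but it entered the test only through its level in that same library, so nothing is read from it. With CD8 WT replicate 1 as the only CD8 WT library the values of Aen, Pmaip1 and Perp were 0.14, 0.17 and −0.85, and none was called. Leaving out 1 library moved the value of Trp53inp1 between −0.88 (without CD4 WT replicate 2) and −0.0693 (without CD4 WT replicate 1), and that of Tnfrsf10b between −2.43 (without CD8 WT replicate 1) and −1.04 (without CD8 WT replicate 2).

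Within the WT mice, no member was called between CD8 and CD4 cells by limma, beside 0.195% of all genes. At an unadjusted p under 0.05 there was 1 of 10, Phlda3, beside 8.67% of all genes. Phlda3 was lower in log2(TPM + 1) in both CD8 than in both CD4 WT libraries, a difference of −2.21 (adjusted p = 0.288) with both CD8 WT libraries listed at 0. The CD8 WT libraries were below the CD4 WT libraries for Bbc3, Phlda3 and Aen, 3 of 10 beside 24.8% of all genes, and above them for Tnfrsf10b and Ei24, 2 of 10 beside 9.53%. Within the KO mice, again no member was called (0.28% of all genes), and Phlda3 was the 1 member at an unadjusted p under 0.05 (9.52% of all genes). Tnfrsf10b, Phlda3 and Trp53inp1 were lower in both CD8 KO than in both CD4 KO libraries, 3 of 10 beside 25.8% of all genes. The Phlda3 difference was −1.63 (adjusted p = 0.391) and that of Trp53inp1 −0.75 (adjusted p = 0.545).

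The message of p53 itself did not pass the test, while several of its other targets rose with the same knockout. Trp53, the p53 gene, was at 416 and 460 TPM in CD4 WT cells and 534 and 460 in CD4 KO cells, a difference of 0.18 (limma, adjusted p = 0.836). In CD8 cells it was at 452 and 222 TPM in WT and 458 and 555 in KO, a difference of 0.67 (adjusted p = 0.403). Of 11 tested genes for p53 and its regulators, none was called, 2 in CD4 and 0 in CD8 cells had an unadjusted p under 0.05, and the medians were 0.04 and −0.47. Of 25 tested p53 targets for arrest, repair and metabolism, 3 rose in CD4 cells and 4 in CD8 cells, none fell, and the median differences were 0.83 and 0.64. Those lists were chosen with earlier results of these data known, so their direction is not independent evidence.

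The arrest and repair targets that rose were the cyclin gene Ccng1, Gtse1 and Psrc1, which encode microtubule-associated proteins, and in CD8 cells also the ribosomal protein-like gene Rps27l. Ccng1 was at 158 and 153 TPM in CD4 WT cells and 999 and 873 in CD4 KO cells, and at 132 and 61.4 in CD8 WT cells and 533 and 566 in CD8 KO cells. Its differences were 2.58 (limma, adjusted p = 0.0301) and 2.59 (adjusted p = 0.0248). Gtse1 rose by 2.61 and 3.42, and Psrc1 by 3.49 and 4.99 (adjusted p = 0.0343, 0.0233, 0.0423 and 0.0233). Rps27l rose in CD8 cells by 2.36 (adjusted p = 0.0458), and its CD4 difference of 1.49 did not pass (adjusted p = 0.114). When each library was left out in turn, these calls held at most without CD8 WT replicate 1 or 2 (adjusted p up to 0.456 for Gtse1 in CD4 cells), and the direction held throughout. Mdm2, the feedback inhibitor, was at 120 and 185 TPM in CD4 WT cells, 331 and 311 in CD4 KO cells, 148 and 262 in CD8 WT cells, and 257 and 250 in CD8 KO cells, and neither difference passed (1.10, adjusted p = 0.160, and 0.36, adjusted p = 0.633). Cdkn1a, which encodes the arrest protein p21, was at 10.2 and 3.93 TPM in CD4 WT cells and 45.1 and 30.4 in CD4 KO cells, but at 6.65 and 141 in CD8 WT cells and 39.5 and 58.3 in CD8 KO cells. Like Pmaip1, Cdkn1a was highest of all in the library labelled CD8 WT replicate 2, and its differences did not pass (2.36, adjusted p = 0.308, and 0.57, adjusted p = 0.822).

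The survival proteins that the BH3-only members bind, and their relatives, had no called gene. Of 16 tested BCL2 family genes outside the 10, none was called by limma in either lineage, 4 in each had an unadjusted p under 0.05, and the median differences were −0.07 and −0.25. Bcl2 was at 80.2 and 79.1 TPM in CD4 WT cells, 41.7 and 79.1 in CD4 KO cells, 56.6 and 14.3 in CD8 WT cells, and 16.7 and 61.5 in CD8 KO cells. Mcl1 was between 59.1 and 120 TPM in all 8 libraries. Bcl2l11, which encodes the BH3-only protein BIM, was at 139 and 190 TPM in CD4 WT cells and 36.7 and 66.1 in CD4 KO cells, the opposite side from Bax and Pmaip1, with a difference of −1.70 that did not pass (adjusted p = 0.246). In CD8 cells Bcl2l11 was at 85.1 and 117 TPM in WT and 145 and 24.5 in KO, where the libraries overlapped. Of 14 genes of the apoptosome and the caspases, none was called, 4 in CD4 and 5 in CD8 cells had an unadjusted p under 0.05, and the medians were 0.28 and 0.54. A list of 8 genes held the CHOP and ATF4 stress route, which can also raise Tnfrsf10b and Bbc3, with the FOXO factor genes Foxo1 and Foxo3. None of the 8 was called, and their medians were −0.21 and −0.84. An unadjusted p under 0.05 was seen for 2 in CD4 and 3 in CD8 cells. Named after their values were seen, the 3 in CD8 cells were Atf3, Foxo1 and Foxo3, with differences of −4.39, −1.11 and −1.77. The 2 in CD4 cells were the factors themselves, named after their values were seen: Atf4 at 191 and 278 TPM in WT and 798 and 686 in KO (1.68, adjusted p = 0.147) and Ddit3, which encodes CHOP (1.29, adjusted p = 0.249). The summed level of the 8 was 471 to 496 TPM in CD4 WT cells and 1016 to 1242 in CD4 KO cells. Among the 8, only Atf4 and Ddit3 had both CD4 KO libraries above both CD4 WT libraries. Atf3, Chac1, Trib3 and Foxo1 had both below (−1.70, −1.47, −0.52 and −0.72), and Asns and Foxo3 overlapped (0.58 and 0.10). In CD8 cells the sum was 417 TPM in WT replicate 1, 1866 in the library labelled WT replicate 2 and 694 to 745 in KO, so the KO libraries lay between the WT libraries.

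Marker genes of other cells and of cell handling also differed in level between the genotypes, and their part in the members' differences was not tested. The 17 neutrophil and myeloid markers summed to 91.0 to 287 TPM in CD4 WT cells and 1382 to 2293 TPM in CD4 KO cells, and all 16 that were tested had a positive difference, with none called by limma and 6 at an unadjusted p under 0.05. Elane, Mpo, Cd14 and Marco were at 0 in 1 or both CD4 WT libraries, and of these Marco also in 1 CD4 KO library. In CD8 cells they summed to 689 TPM in WT replicate 1, 30630 in the library labelled WT replicate 2 and 1211 to 1638 in KO, and none of the 16 had a positive difference, with 2 at an unadjusted p under 0.05. The 18 immediate early genes of cell handling summed to 3807 to 3985 TPM in CD4 WT cells and 8528 to 9005 in CD4 KO cells. Of these, 16 had a positive CD4 difference and 8 an unadjusted p under 0.05, with none called by limma. Their median difference was 1.59 in CD4 cells and −1.33 in CD8 cells. In CD8 cells they summed to 3914 and 14578 TPM in WT and 4274 to 4767 in KO, and Dusp2 and Ier2 fell, where 0.187% of all genes were called lower. Dusp2 differed by −3.01 (adjusted p = 0.0233) and Ier2 by −2.74 (adjusted p = 0.0458), and leaving out any 1 library ended both calls, apart from CD8 WT replicate 1 for both and CD8 WT replicate 2 for Dusp2. The 11 erythroid markers summed to 77.9 to 174 TPM in CD4 WT cells and 269 to 437 in CD4 KO cells. The 11 B cell markers summed to 11523 to 15424 TPM in CD4 WT cells and 6726 to 7256 in CD4 KO cells, and the 14 epithelial and stromal markers to 135 to 148 and 104 to 105 TPM. In CD8 cells the B cell markers summed to 2024 TPM in WT replicate 1, 25860 in the library labelled WT replicate 2 and 2085 to 2708 in KO. By limma none of these cell type markers and none of 13 T cell identity genes was called in either lineage. At an unadjusted p under 0.05 there were 1 erythroid, 1 B cell, 2 epithelial or stromal and 2 T cell identity genes in CD4 cells, and 9, 3, 0 and 3 in CD8 cells.

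**Figure D4:**
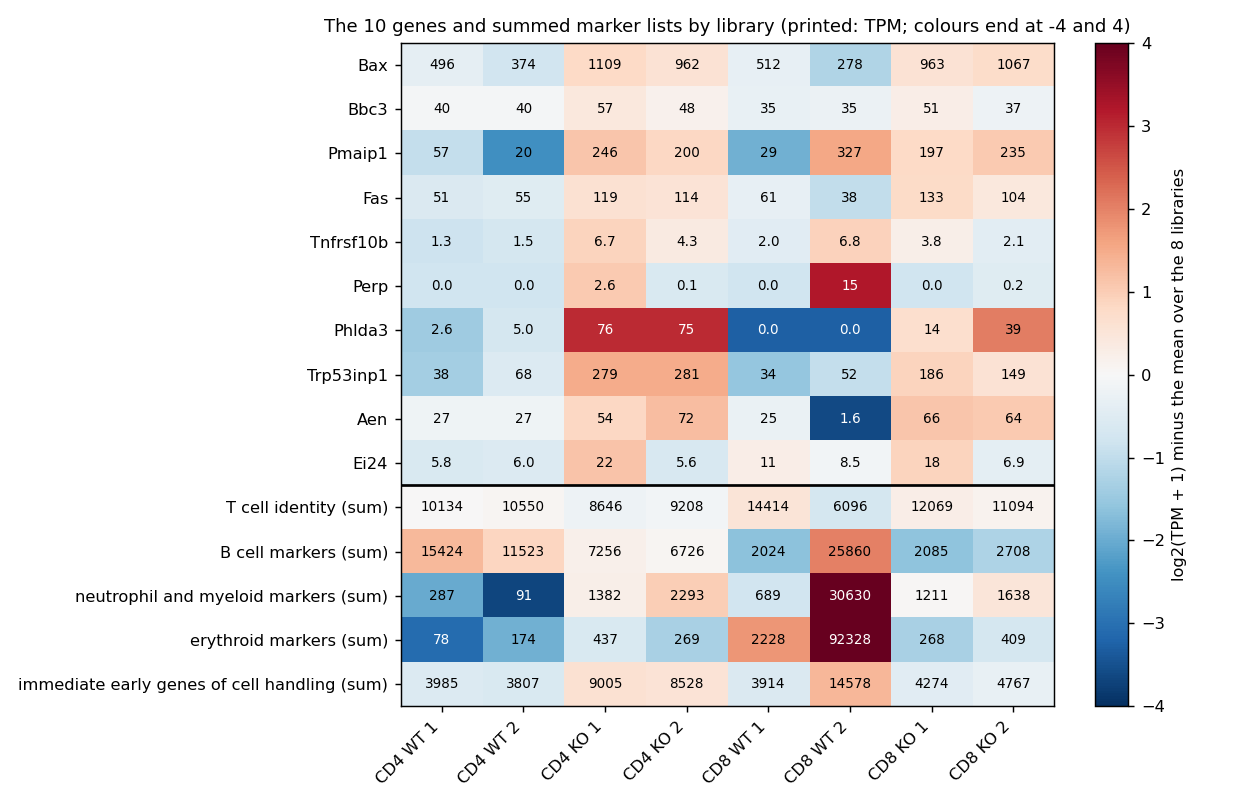
Heat map of the 10 genes and, under the black line, 5 summed marker lists (vertical axis) in the 8 libraries (horizontal axis). Each box prints the TPM, and its colour is log2(TPM + 1) minus the mean over the 8 libraries, from blue (−4) to red (4). The erythroid and myeloid sums peak in the library labelled CD8 WT replicate 2 (92328 and 30630 TPM), where Aen is lowest and Perp highest.

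The knockout difference varied with gene length across all genes, and most members are short. Sorted by genomic span into 5 equal groups, the genes had a median CD4 difference of 0.21 in the shortest and −0.83 in the longest group, and of 0.31 and −0.53 in CD8 cells. Of the 10 members, 9 lie in the 3 shortest groups, with Fas as the exception. After the trend with span was removed from the log2 values of each library, the same members were called. These were Phlda3 and Trp53inp1 in CD4 cells and Phlda3 in CD8 cells, and the median of the 10 was 1.32 in CD4 and 0.95 in CD8 cells. The span of the members ran from 3.05 to 37.1 kb.

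The members fell into patterns across the 8 libraries, described by Pearson's r of log2(TPM + 1) with no test, since all values share the same libraries. Bax and Fas had r = 0.963 and Phlda3 and Trp53inp1 r = 0.934, pairs with low values in all WT and high values in all KO libraries. Pmaip1 and Tnfrsf10b had r = 0.779, with the library labelled CD8 WT replicate 2 at their top, and Perp and Aen had r = −0.776, with that library at opposite ends. The candidates for the closest genes were 7776 others averaging 10 TPM or more, and the 2 with the highest r are given for each member averaging 5 TPM or more. Bax was closest to Commd3 (r = 0.995) and 2810013P06Rik (0.995), and Fas to Prkar1a (0.985) and Tspyl1 (0.980). Phlda3 was closest to Polr2a (0.984), which encodes the largest subunit of RNA polymerase II, and Sf3b4 (0.980), and Trp53inp1 to P4hb (0.989) and Trex1 (0.987). Pmaip1 was closest to 2210403K04Rik (0.990) and Glul (0.978), Aen to Znhit2-ps (0.997) and Xab2 (0.991), and Bbc3 to Med22 (0.960) and Zscan21 (0.957). Ei24 had no near match, the highest being Wdr37 (0.798) and Blzf1 (0.785).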

How the data were processed

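Reads were aligned with HISAT to mm10, per the submitters' processing notes, and neither its version nor the program that made the gene tables is given in the sources used here. Per the file headers, the authors deposited TPM per gene and library, which have the same total in every library, with FPKM, a length-corrected fragment density. The deposited coverage per gene served only to estimate depth. Per the labels the authors used DESeq2, but the tables hold no counts, so count tests could not be run and no counting interval can be given.

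TPM was summed per symbol. The 11786 genes averaging 1 TPM or more were tested. A model in limma 3.58.1 (under R 4.3.3, with the package data.table at version 1.17.8) took log2(TPM + 1), gave each group its own mean and all groups a common spread with an intensity trend (4 residual degrees of freedom), and Benjamini-Hochberg adjustment covered all genes tested. Errors are standard errors, and a call is an adjusted p under 0.05. Differences on this scale understate changes of scarce genes. The steps were tested on simulated data.

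The members, gene lists and tests were chosen with earlier results of these data known. Named besides the members were called genes of each list (at most 4 per comparison), Trp53, Mdm2, Cdkn1a, Ccng1, Fasl, Tnfsf10, Bcl2, Mcl1, Bcl2l11, and the 2 genes most like each member. Alternatives were another pseudocount, filter, scaling, unit, trend or weights, fewer groups, a replicate block, a span correction, and leaving out each library.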

Additional observations from a re-analysis of the deposited data

How the results depend on the processing

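Of 396 knockout differences of single members under 20 other settings, 390 kept their direction and 6 reversed: Ei24 in CD4 cells without CD4 KO replicate 1 (−0.0708), and in CD8 cells Pmaip1 without CD8 WT replicate 1 (−0.60), Tnfrsf10b (0.36), Perp (0.15) and Ei24 (−0.0165) without CD8 WT replicate 2, and Ei24 without CD8 KO replicate 1 (−0.47). With 1 library left out, the ranges were −0.0708 to 1.73 for Ei24 in CD4 cells, and in CD8 cells −0.60 to 2.86 for Pmaip1, −1.02 to 0.36 for Tnfrsf10b, −3.86 to 0.15 for Perp and −0.47 to 0.82 for Ei24. The cause was not tested.

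The number of members called in CD4 cells, 2 in the report, was 0 with no filter (more genes tested) and without limma's trend. It was 4 with median-of-ratios scaling (beside 141 of all genes), 5 with library weights (beside 1260 of all genes), and 0 to 6 when 1 library was left out. It was 6 without CD8 WT replicate 2 and 5 without CD8 WT replicate 1 (beside 768 and 758 of all genes), and 0 without any other library. In CD8 cells, 1 in the report, it was 0 with a pseudocount of 5, with no filter, with library weights and with only the compared groups, and 0 to 6 when 1 library was left out, being 6 without CD8 WT replicate 1 (5 higher and Perp lower, beside 1842 of all 11786 genes). For the difference between lineages and between the WT groups it was 0 to 3 when 1 library was left out, the 3 coming without CD8 WT replicate 1, where 1148 and 1629 of all genes were called, and between the KO groups 0 throughout.

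The number of all genes called in CD4 cells, 84 in the report, was 0 with no filter, 141 with median-of-ratios scaling, 140 with TPM rescaled without marker genes, 5 without the trend, 1260 with library weights, 243 with only the compared groups, 29 with the replicate block and 26 with span removed, and 0 to 768 when 1 library was left out. Median-of-ratios scaling moved the median CD4 difference of all genes from −0.16 to 0.03 and the split of calls from 22 higher and 62 lower to 62 and 79, and removing span gave 19 and 7. In CD8 cells, 35 in the report, the number was 0 with no filter, with library weights and with only the compared groups, 15 without the trend, 26 with the replicate block, and 0 to 1842 when 1 library was left out.

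Libraries with the same replicate number did not deviate together (r = −0.04 to 0.09 between groups), so the numbers were not treated as pairs, and with the replicate block 2 members were called in CD4 cells and 1 in CD8 cells. The difference between lineages was not called for any member over all 8 libraries. It reversed sign for Bax with median-of-ratios scaling (−0.16), with span removed (−0.0204), without CD4 WT replicate 1 (−0.04) and without CD8 WT replicate 2 (−0.28). It did so for Fas with median-of-ratios scaling (−0.17), with span removed (−0.14), without CD8 WT replicate 2 (−0.19) and without CD8 KO replicate 1 (−0.03). It also did so for Phlda3 with a pseudocount of 5 (−0.67), with FPKM (−0.28) and without CD8 KO replicate 2 (−0.11), for Bbc3 without CD4 KO replicate 1 (0.03) and CD8 KO replicate 2 (0.14), for Pmaip1 without CD8 WT replicate 2 (0.17) and for Ei24 without CD4 KO replicate 1 (0.25). With 1 library left out, its ranges were −0.28 to 0.60 for Bax, −0.31 to 0.14 for Bbc3, −3.29 to 0.17 for Pmaip1, −0.19 to 0.47 for Fas, −0.11 to 1.26 for Phlda3, −1.55 to 0.25 for Ei24, −0.88 to −0.0693 for Trp53inp1, −2.43 to −1.04 for Tnfrsf10b, 0.14 to 3.49 for Aen and −4.86 to −0.85 for Perp.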
